A study of Rattus norvegicus with 22 samples.

Results

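The genes described are those of the proteasome, chosen by symbol: Psma, Psmb, Psmc, Psmd, Psme, Psmf or Psmg followed by a digit, without the interferon-induced Psmb8, Psmb9, Psmb10, Psme1 and Psme2, which are set beside them. With 1 probe set per gene, the one of highest mean signal, 41 of the 14217 genes measured met the rule. They comprised 13 subunits of the core particle, 17 of the regulatory particle (9 of its base and 8 of its lid), 7 assembly chaperones, the alternative cap Psme4 and the inhibitor Psmf1. Psmc3ip, which works in meiotic recombination, and Psme3ip1, which binds the cap protein Psme3, met the rule by symbol and are not subunits. Psmb6, a catalytic subunit, and Psme3 were named only on probe sets shared with other genes, and no value was taken for either.

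RNA came from the right lungs of 22 male Sprague-Dawley rats, 1 array per rat, from 2 h and 18 h after an injection into the right jugular vein. Vehicle rats (n = 3 at each time) received 0.15 ml of 0.01% Tween 20 per 100 g body weight, Mild PE rats (n = 4 at each time) 1300000 and Severe PE rats (n = 4 at each time) 2000000 polystyrene microspheres per 100 g, suspended in the same Tween 20. The injected volume per 100 g was 0.15 ml in Severe PE and 0.10 ml in Mild PE rats, so that Vehicle matched Severe PE in volume and Mild PE did not have a Vehicle of its own volume. The spheres lodge in small pulmonary arteries and cause pulmonary embolism (PE), but they do not carry the platelets and fibrin of a blood clot, which limits the model. All groups, Vehicle included, had their lungs lavaged with 8 ml before excision, so that cells free in the airspaces were partly removed.

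The proteasome is the protease that degrades most short-lived and damaged intracellular proteins once they carry a ubiquitin chain. Its core particle is a barrel of stacked rings, the outer ones of α subunits (Psma genes), which gate the entrance, and the inner ones of β subunits (Psmb genes), among which Psmb5, Psmb6 and Psmb7 cut peptide bonds. The regulatory particle caps the barrel. Its base holds a ring of ATPases (Psmc genes) that unfold the substrate, with Psmd1 and Psmd2 as scaffolds and Psmd4 as a ubiquitin receptor, and its lid holds Psmd14, the metalloprotease that removes the ubiquitin chain. Cells keep the subunits in proportion by shared transcription of their genes, and after proteasome inhibition the transcription factor Nfe2l1 raises them together.

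Values are log2 array signals after quantile normalization, with a floor at 4. A difference of 1 is a doubling, and signals of different genes are not comparable because each probe set binds its target differently. The mean signal of the 41 genes lay between 8.49 and 13.48 (median 10.85, against 8.61 over all genes), and no value of theirs was at the floor. Array medians before normalization lay between 6.84 and 7.19. Signal from the 5′ end of long transcripts was weaker on 4 arrays (Mild PE rat 4 and Vehicle rat 1 of 18 h, Severe PE rat 1 and Vehicle rat 3 of 2 h), with a difference between 3′ and 5′ Gapdh probe sets of 0.35 to 0.64 against 0.18 to 0.32 on the others. Markers of lung tissue were present in every group: the summed linear signal of 5 of 5 alveolar type II genes was 80852 to 93898 in 18-h Severe PE and 75248 to 106426 in 18-h Vehicle rats. Liver markers were at or near the floor.

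At 2 h no proteasome gene passed the test against Vehicle. In 2-h Mild PE rats 0 of 41 passed a Benjamini-Hochberg adjusted p of 0.05 with limma (4 had an unadjusted p below 0.05), where 0.492% of all genes passed. In 2-h Severe PE rats 0 of 41 passed (2 unadjusted), where 0.0422% of all genes passed. The median log2 difference of the regulatory particle genes was -0.11 in 2-h Severe PE and 0.00 in 2-h Mild PE, and that of the core particle genes -0.04 in 2-h Severe PE and 0.00 in 2-h Mild PE. Between the doses at 2 h, 1 gene passed, lower in Severe PE, where 0.668% of all genes passed and 0.317% were lower. This was Psmb2, a β ring subunit without catalytic activity, at 11.53, 11.59, 11.55 and 11.54 in 2-h Severe PE rats and 11.84, 11.85, 11.81 and 11.76 in 2-h Mild PE rats. The groups did not overlap and the difference was small (-0.26 ± 0.03 SE, adjusted p = 0.037). It did not pass with median centring, no further normalization, dim probe sets left out, 1 fit on all arrays, the replicate block or the mean of a gene's probe sets, nor in 7 of the 8 runs with 1 rat left out.

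After 18 h of Severe PE, genes of both particles were higher than in Vehicle rats. With limma, 14 of the 41 genes passed an adjusted p of 0.05, all of them higher, where 13.5% of all genes passed and 6.18% were higher. Of the 7341 genes whose mean signal reached that of the dimmest of the 41, 8.88% passed and were higher. Of the 14 genes, 2 also reached 1.5-fold (9.9% of all genes, 4.29% higher). The 4 Severe PE rats all lay above the 3 Vehicle rats in 25 of the 41 genes, where the groups stood apart in this direction in 14.5% of all genes, and all lay below them in 0 of the 41, where 16.7% of all genes did. The median log2 difference was 0.51 over the 17 regulatory particle genes (1.42-fold) and 0.34 over the 13 core particle genes, against 0.00 over all genes, and all 30 differences were above 0, where 49.8% of all genes were. It was 0.07 over the 7 assembly chaperones and 0.02 over the 5 interferon-induced genes. The count of 14 was 2 with median centring, where 9.33% of all genes passed. It was 2 without the 4 arrays of weaker 5′ signal, where 7.36% of all genes passed. With 1 rat left out it was 1 (without Severe PE rat 2, 5.3% of all genes) to 8 (without Severe PE rat 1, 8.82% of all genes). All 30 differences stayed above 0 in each of these runs.

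In single rats, the 4 Severe PE rats and the 4 Mild PE rats of 18 h were all above the 3 Vehicle rats for both particles. In the 4 Severe PE rats of 18 h, the median regulatory particle gene lay 0.31, 0.63, 0.46 and 0.55 above the mean of the 18-h Vehicle rats, and the median core particle gene 0.31, 0.40, 0.36 and 0.26. In the 4 Mild PE rats of 18 h the medians were 0.39, 0.32, 0.18 and 0.34 for the regulatory particle and 0.34, 0.22, 0.07 and 0.25 for the core particle. In the 18-h Vehicle rats themselves these medians were -0.04, 0.02 and 0.06 for the regulatory particle and -0.05, 0.00 and 0.00 for the core particle. The Vehicle rats make up the mean they are measured from, which draws their medians toward it. Each Severe PE rat had 16 or 17 of 17 regulatory particle genes above the Vehicle mean, where 46.5% to 46.9% of all genes were.

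**Figure D1:**
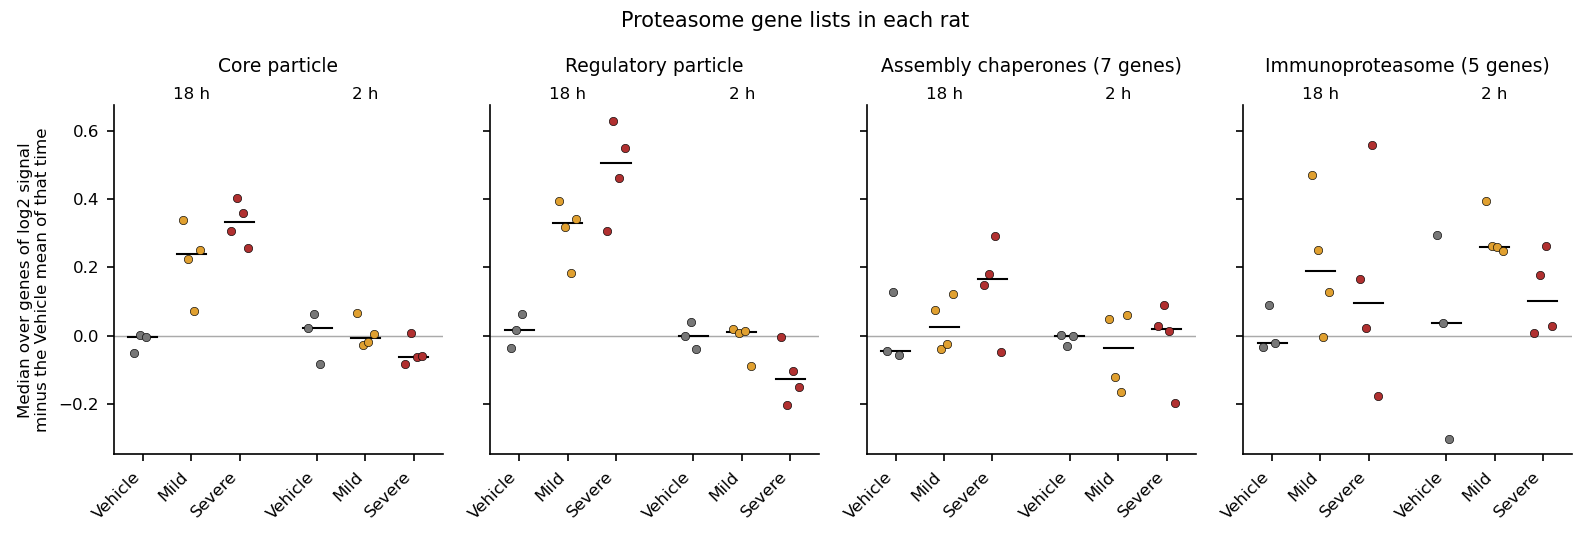
Each point is 1 rat. The vertical axis gives the median over the genes of a list of that rat's log2 signal minus the mean of the Vehicle rats of the same time, with panels for the core particle, the regulatory particle, the assembly chaperones and the interferon-induced genes (immunoproteasome), the horizontal lines are group medians and the 18-h groups stand left of the 2-h groups. The regulatory particle medians of the 4 Severe PE rats of 18 h lie between 0.31 and 0.63, above all Vehicle rats, and those of the 2-h Severe PE rats lie between -0.20 and -0.01. Vehicle rats are measured from their own mean.

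Marker genes of several cell types differed as well, though the neutrophil ranges overlapped. At 18 h the summed linear signal of 3 measured macrophage markers of 5 listed was 16060 to 17992 in Severe PE rats, against 6826 to 9567 in Vehicle rats, and that of 5 of 5 neutrophil markers 20725 to 41766 in Severe PE rats, against 13265 to 26960 in Vehicle rats. The sum of 4 of 5 endothelial markers was 23799 to 29104 in Severe PE rats, against 35080 to 40282 in Vehicle rats, and that of 3 of 4 alveolar type I markers 35585 to 41963 in Severe PE rats, against 42389 to 51390 in Vehicle rats. The sum of 3 of 3 T cell markers was 1216 to 2234 in Severe PE rats, against 2949 to 3415 in Vehicle rats, and that of 2 of 3 B cell markers 667 to 1174 in Severe PE rats, against 1829 to 2278 in Vehicle rats. Heart muscle markers (2 of 2) summed to 1662 to 2831 in Severe PE rats, against 3325 to 7426 in Vehicle rats. None of these markers was at the floor in all rats of an 18-h group. In 18-h Mild PE rats the macrophage sum was 12124 to 16554 and the endothelial sum 26321 to 31960, and the T cell sum was 1566 to 2798 and the B cell sum 727 to 1658, all of them apart from the Vehicle ranges. The neutrophil sum (14145 to 38329), the type I sum (33087 to 43545) and the heart muscle sum (3970 to 4734) of Mild PE rats overlapped with Vehicle. The part of these shifts in the proteasome results of Mild and Severe PE was not tested, and in whole lung a changed mixture of cells and a changed amount of RNA per cell cannot be told apart.

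Since the core and regulatory particle genes were higher together, their promoters were set side by side. The RefSeq table of rat promoters (assembly GRCr8) held 37 of the 41 genes, 26 of them of the particles, and not Psma7, Psmd6, Psmd12 or Psmd14. In the window from 250 bases before the start of transcription to 50 after it, 3 motifs were searched on both strands: CCAAT, the box that binds the factor NF-Y, CCGGAA, the core of ETS family sites, and TGACNNNGC, the core of the antioxidant response element. CCAAT was found in 9 of 12 core promoters and 5 of 14 regulatory particle promoters, against 37.7% of all 27457 promoters. CCGGAA was found in 4 of 12 core promoters and 10 of 14 regulatory particle promoters, against 15.8% of all. TGACNNNGC was found in 5 of the 26, against 12.2% of all. Promoters of protein-coding genes alone, 19005 in number, held them in 38.4%, 18.6% and 12.7%. A match is a run of letters and not a site of binding.

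The stretches of 200 bases before the start of transcription of 4 genes are given to show how the motifs lie. All 4 rose at 18 h of Severe PE. Motif letters are in capitals and each strand is that of the gene. Psmd8, Psmc4, Psmd3 and Psmb1 also passed at 18 h of Severe PE, and their stretches held none of the motifs. Outside the stretch but within the searched window, Psmb1 had a reverse CCAAT box at -237 to -233. Psmd3 had TGACNNNGC on the reverse strand at 14 to 22 after the start. Psmc1, Psmc2, Psmc6 and Psmd11 did not pass, and their stretches held CCGGAA on either strand. A link between motif and rise was not tested. Psmc5 (chr10:91687353-91687552, + strand) has CCGGAA at -86 to -81. Psmd13 (chr1:205394048-205394247, + strand) has the CCAAT box on the reverse strand, read ATTGG, at -96 to -92 and CCGGAA at -59 to -54. Psmd2 (chr11:93763389-93763588, - strand) has CCGGAA at -144 to -139 and, on the reverse strand, read TTCCGG, at -87 to -82. Psmb2 (chr5:144254858-144255057, + strand) has CCAAT at -72 to -68, whose last base is also the first of TGACNNNGC at -68 to -60, and a further reverse CCAAT box at -214 to -210, outside the stretch.
Psmc5: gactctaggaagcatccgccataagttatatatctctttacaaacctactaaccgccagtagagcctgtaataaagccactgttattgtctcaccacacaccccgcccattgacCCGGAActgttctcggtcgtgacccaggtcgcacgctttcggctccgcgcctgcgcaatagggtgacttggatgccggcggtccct
Psmd13: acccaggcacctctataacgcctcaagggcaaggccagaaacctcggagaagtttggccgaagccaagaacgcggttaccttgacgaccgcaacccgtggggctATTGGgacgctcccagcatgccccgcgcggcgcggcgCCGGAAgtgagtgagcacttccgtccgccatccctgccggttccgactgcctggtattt
Psmd2: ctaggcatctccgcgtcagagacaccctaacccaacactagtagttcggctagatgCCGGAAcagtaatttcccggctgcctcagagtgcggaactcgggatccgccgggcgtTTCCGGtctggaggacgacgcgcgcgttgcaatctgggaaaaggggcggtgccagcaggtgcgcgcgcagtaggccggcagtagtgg
Psmb2: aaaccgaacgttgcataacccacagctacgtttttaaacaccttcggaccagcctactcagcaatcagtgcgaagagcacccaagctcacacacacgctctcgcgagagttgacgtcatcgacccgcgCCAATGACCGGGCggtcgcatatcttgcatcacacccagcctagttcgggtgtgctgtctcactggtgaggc

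In the lid, all 8 genes stood apart from Vehicle at 18 h of Severe PE, and 5 of the 8 passed the adjusted p. Psmd14, the deubiquitinase, had 11.09, 11.43, 11.28 and 10.96 in Severe PE rats, against 10.15, 9.61 and 10.37 in Vehicle rats. Its lowest Severe PE rat lay well above its highest Vehicle rat, and it rose 2.21-fold (log2 difference 1.15 ± 0.21 SE, adjusted p = 0.03). Psmd8, another lid subunit, had 11.52, 11.50, 11.42 and 11.66 in Severe PE rats, against 11.00, 11.07 and 10.99 in Vehicle rats. Here the rats of each group lay close together, and the difference was 0.51 ± 0.07 (SE, adjusted p = 0.016), the smallest adjusted p of the 41 genes in this comparison. Psmd7, the inactive partner with which Psmd14 forms a dimer, had 11.41, 11.56, 11.56 and 11.63 in Severe PE rats, against 11.06, 11.09 and 11.13 in Vehicle rats, again without overlap (0.45 ± 0.07 SE, adjusted p = 0.019).

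Psmd13 and Psmd3, further lid subunits, rose by 0.54 ± 0.11 (SE, adjusted p = 0.04) and 0.51 ± 0.11 (SE, adjusted p = 0.043). Psmd12 had a larger difference that did not pass, with 10.16, 10.36, 10.40 and 10.37 in Severe PE rats, against 9.86, 8.98 and 9.83 in Vehicle rats. Vehicle rat 2 lay far below the other 2, and the difference was 0.77 ± 0.23 (SE, adjusted p = 0.11). The same rat was the lowest Vehicle rat on the brightest probe sets of Psmd14 and Psmc6. Psmd6 (0.52 ± 0.15 SE, adjusted p = 0.09) and Psmd11 (0.44 ± 0.14 SE, adjusted p = 0.13) were the other lid genes that did not pass.

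In the base, 5 of 9 genes passed and 7 of 9 stood apart from Vehicle. Psmc5, an ATPase of the ring, had 11.28, 11.65, 11.61 and 11.62 in Severe PE rats, against 10.80, 11.01 and 10.96 in Vehicle rats. All Severe PE rats were higher, rat 1 the least, and Psmc5 rose 1.54-fold (0.62 ± 0.11 SE, adjusted p = 0.029). Psmd4, the ubiquitin receptor, had 11.05, 11.16, 11.22 and 11.15 in Severe PE rats, against 10.66, 10.75 and 10.82 in Vehicle rats. Its groups were tight and apart, with a difference of 0.40 ± 0.06 (SE, adjusted p = 0.023). The ATPase genes Psmc3 (0.32 ± 0.06 SE, adjusted p = 0.035) and Psmc4 (0.26 ± 0.05 SE, adjusted p = 0.035) and the scaffold gene Psmd2 (0.30 ± 0.06 SE, adjusted p = 0.044) rose by less.

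The ATPase gene Psmc6 had the largest difference of the 30 core and regulatory particle genes and also the largest spread. Its values were 9.43, 9.80, 10.52 and 9.64 in Severe PE rats, against 9.72, 7.33 and 8.93 in Vehicle rats. The groups overlapped, the Vehicle rats alone spanned more than the difference of the means, and it did not pass (1.19 ± 0.60 SE, adjusted p = 0.29). Psmc1 (0.59 ± 0.19 SE, adjusted p = 0.12), Psmc2 (0.31 ± 0.08 SE, adjusted p = 0.075) and the scaffold gene Psmd1 (0.35 ± 0.23 SE, adjusted p = 0.43) were the other base genes that did not pass.

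In the core particle, 3 of 13 genes passed and 8 of 13 stood apart from Vehicle. Psmb2 had 12.09, 12.26, 12.18 and 11.95 in Severe PE rats, against 11.39, 11.61 and 11.71 in Vehicle rats. Every Severe PE rat was above every Vehicle rat, and the rise was 1.46-fold (0.55 ± 0.11 SE, adjusted p = 0.035). Psma2, an α ring subunit, had 12.16, 12.18, 12.08 and 12.14 in Severe PE rats, against 11.84, 11.70 and 11.79 in Vehicle rats. These groups were apart as well (0.36 ± 0.06 SE, adjusted p = 0.02), and Psmb1, a β ring subunit, rose by 0.26 ± 0.05 (SE, adjusted p = 0.034).

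Of the genes of the catalytic sites, Psmb5 and Psmb7 had a value and Psmb6 had none. Neither passed, though Psmb7 differed about as much as Psmb1, which did. Psmb5, which carries the chymotrypsin-like site, had 13.00, 13.02, 13.08 and 12.91 in Severe PE rats, against 12.89, 12.84 and 12.78 in Vehicle rats. The groups were narrowly apart and the difference of 0.17 ± 0.06 (SE, adjusted p = 0.14) did not pass. Psmb7, of the trypsin-like site, differed by 0.26 ± 0.07 (SE, adjusted p = 0.072) and was apart from Vehicle too. The lowest difference of the core was that of Psmb4, a β ring subunit (0.13 ± 0.09 SE, adjusted p = 0.46), and the α ring genes Psma1 (0.54 ± 0.12 SE, adjusted p = 0.052), Psma5 (0.46 ± 0.15 SE, adjusted p = 0.12), Psma4 (0.41 ± 0.18 SE, adjusted p = 0.23) and Psma7 (0.37 ± 0.09 SE, adjusted p = 0.058) had larger differences that did not pass. The remaining genes, Psma3, Psma6 and Psmb3, lay between 0.28 and 0.34 and did not pass.

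**Figure D2:**
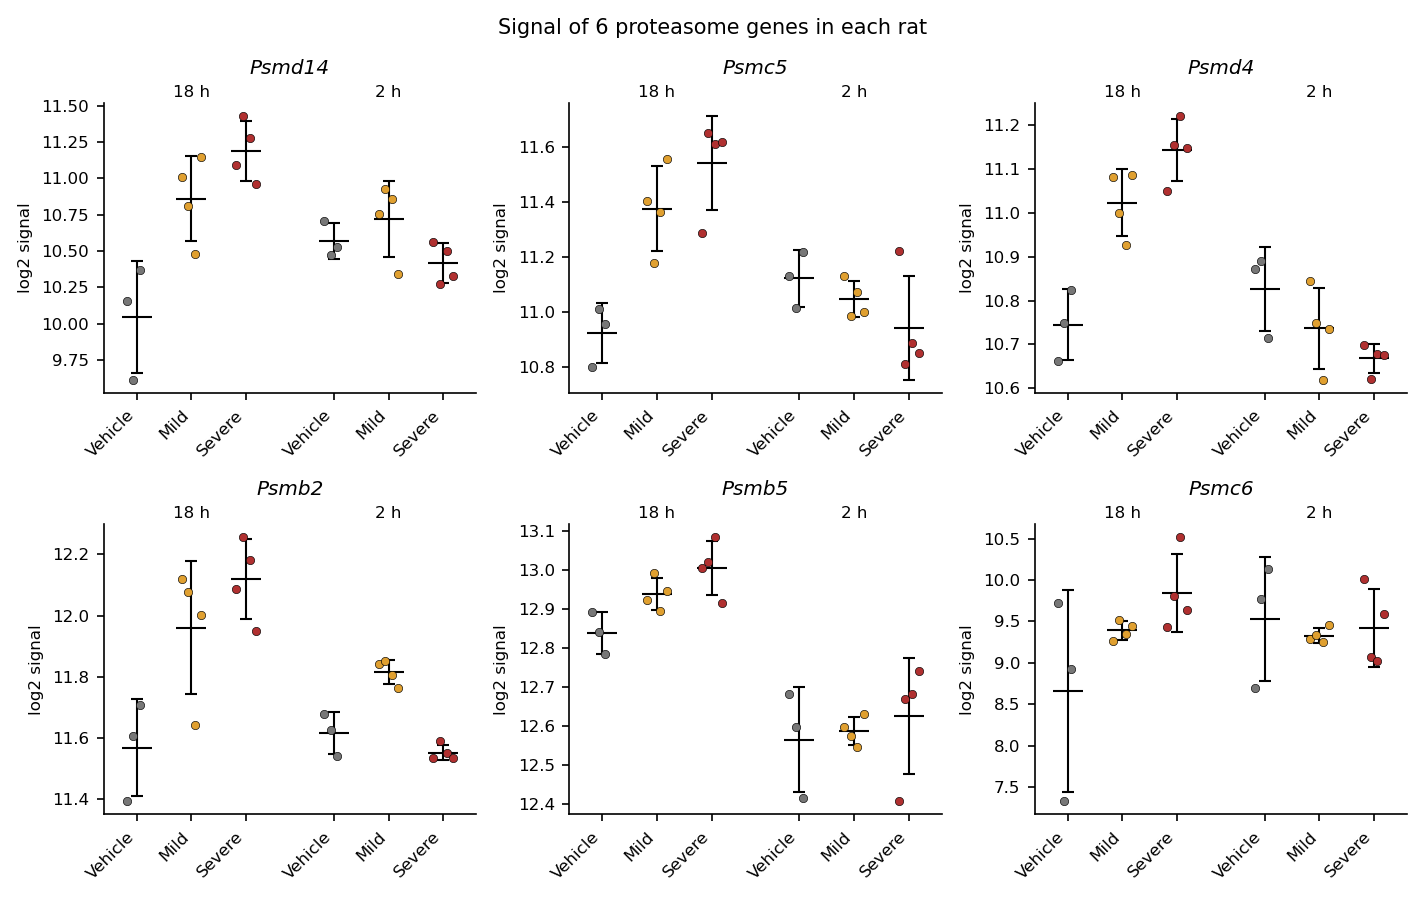
Each point is 1 rat, and the vertical axis is the log2 signal, with its own range in each panel. Bars give the mean and SD of each group for Psmd14, Psmc5, Psmd4, Psmb2, Psmb5 and Psmc6, with the 18-h groups left of the 2-h groups. The Severe PE rats of 18 h lie above the 18-h Vehicle rats in every panel except that of Psmc6, where Vehicle rats span 7.33 to 9.72.

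Among the genes beside the particles, the assembly chaperones had small differences apart from 1. Psmd9, which helps to assemble the base, was the only one of the 7 to pass at 18 h of Severe PE, with 10.41, 10.49, 10.36 and 10.20 in Severe PE rats, against 9.80, 9.94 and 9.79 in Vehicle rats (0.52 ± 0.08 SE, adjusted p = 0.023). The groups were apart. The other base chaperones Psmd5 (0.07 ± 0.10 SE, adjusted p = 0.71) and Psmd10 (0.05 ± 0.16 SE, adjusted p = 0.89) differed by less than their errors. The chaperones of core assembly, Psmg1 (0.13 ± 0.14 SE), Psmg2 (-0.04 ± 0.20 SE), Psmg3 (-0.21 ± 0.13 SE) and Psmg4 (0.22 ± 0.10 SE), had adjusted p of 0.25 or more.

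Psme4, a nuclear cap that opens the core without ATP, had 8.60, 9.15, 8.90 and 9.09 in Severe PE rats, against 8.17, 8.39 and 8.43 in Vehicle rats. The groups were apart but the difference of 0.60 ± 0.15 (SE) did not pass (adjusted p = 0.067). Psmf1, known as an inhibitor of the core in vitro, was at -0.15 ± 0.13 (SE, adjusted p = 0.54). Psmc3ip (0.18 ± 0.19 SE, adjusted p = 0.64) and Psme3ip1 (-0.12 ± 0.11 SE, adjusted p = 0.59), the genes matched by symbol alone, did not pass either.

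In Mild PE rats of 18 h the differences ran the same way and were smaller. None of the 41 genes passed an adjusted p of 0.05 with limma (19 had an unadjusted p below 0.05, against 3503 of 14217 genes), where 1.84% of all genes passed. In 1 fit on all 22 arrays 8 of the 41 passed, 2 of the core and 6 of the regulatory particle, where 10.5% of all genes did. The median log2 difference was 0.32 for the regulatory particle and 0.22 for the core particle, 29 of the 30 differences were above 0, and 15 of the 41 genes stood apart above Vehicle, where 10.2% of all genes did. The Mild and Severe PE comparisons share the same 3 Vehicle rats, so that their agreement is in part built in. Psmd14 had 11.01, 10.81, 10.48 and 11.15 in Mild PE rats, against 10.15, 9.61 and 10.37 in Vehicle rats, apart by a small margin (0.81 ± 0.24 SE, adjusted p = 0.15). Psmd7, at 11.57, 11.52, 11.35 and 11.49 in Mild PE rats, had the smallest adjusted p (0.39 ± 0.06 SE, adjusted p = 0.059). In the core, Psma1 (0.46 ± 0.16 SE) and Psmb2 (0.39 ± 0.14 SE) had the largest differences and Psmb4 the lowest (-0.01 ± 0.09 SE). In the regulatory particle, Psmd1 (0.05 ± 0.20 SE) and Psmd2 (0.13 ± 0.07 SE) had the lowest.

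**Figure D3:**
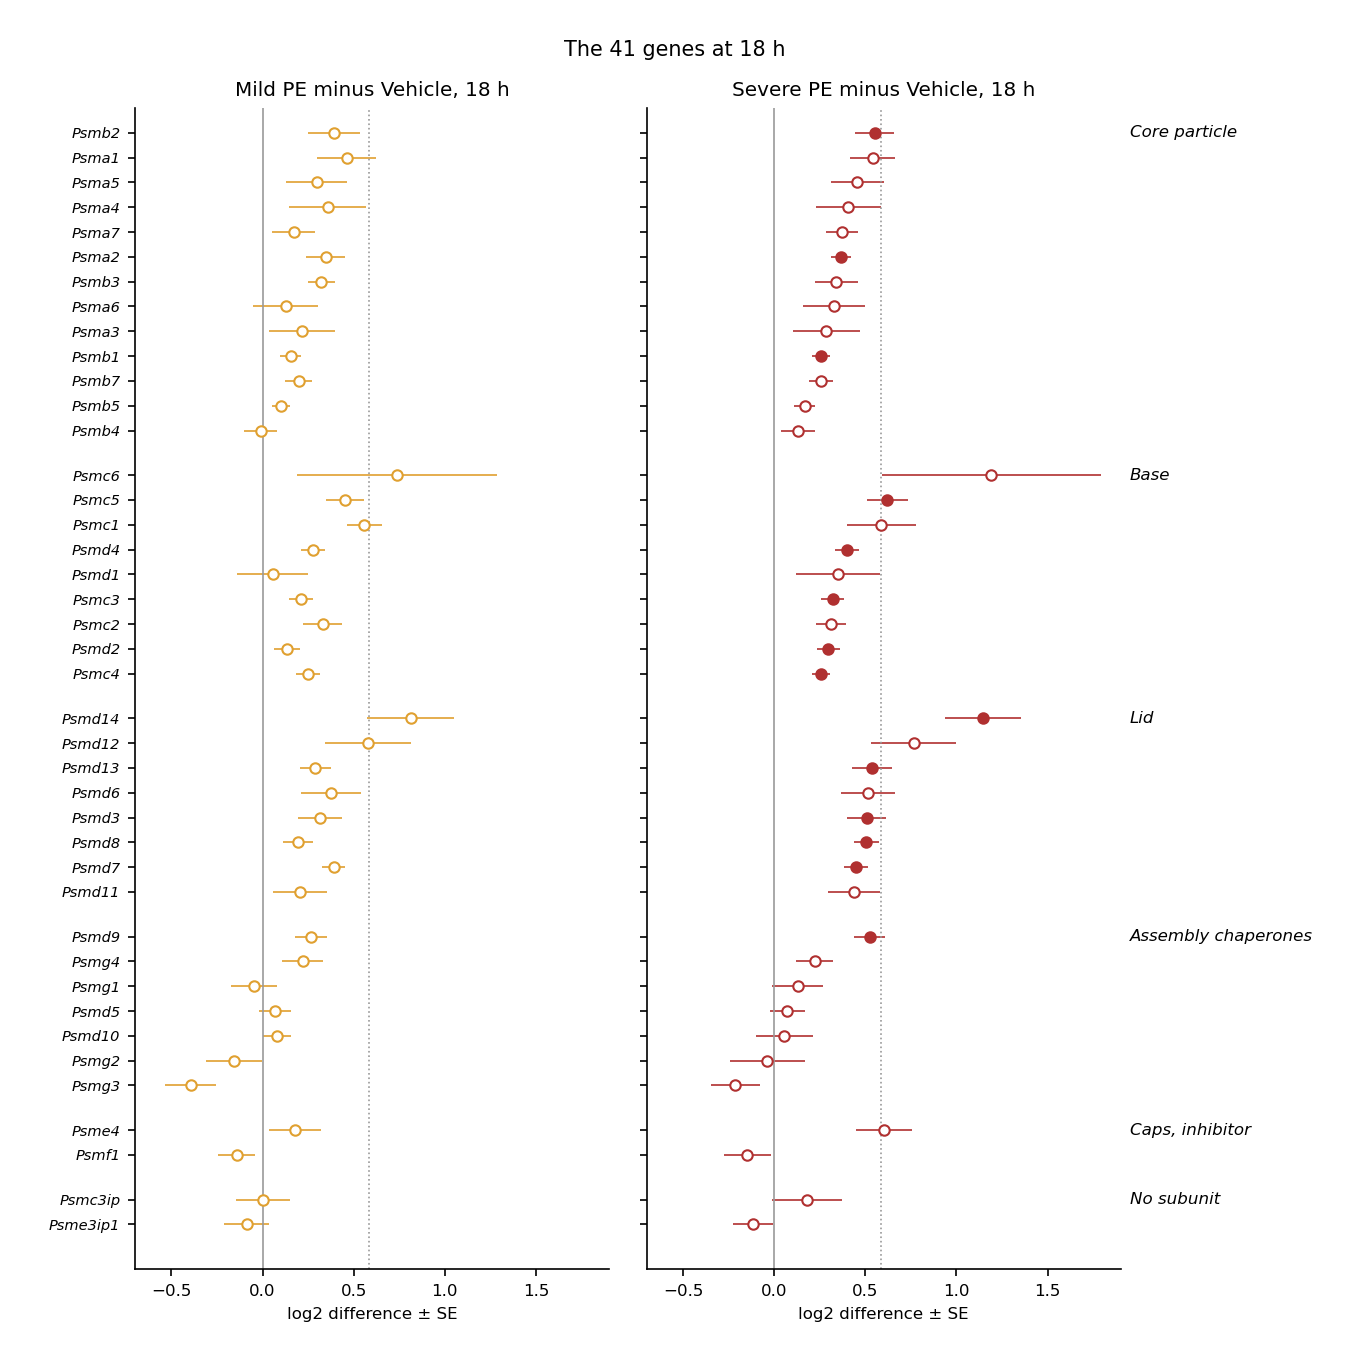
Each row is 1 of the 41 genes, grouped into core particle, base, lid, assembly chaperones and others, and the horizontal axis is the log2 difference from Vehicle at 18 h with its SE, for Mild PE in the left panel and Severe PE in the right. Filled points passed an adjusted p of 0.05 with limma, and the dotted line marks 1.5-fold. In Severe PE 14 genes are filled, 10 of them in the regulatory particle, and in Mild PE 0 are filled.

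The means followed dose at 18 h. They were in the order Vehicle, Mild PE, Severe PE from low to high in 16 of 17 regulatory particle genes and 12 of 13 core particle genes, where 24.8% of all genes showed that order. Among the assembly chaperones 3 of 7 showed it. At 2 h the order was found in 4 of the 41 genes, where 16.2% of all genes had it, and the opposite order in 12 of the 41, where 16.4% of all genes had it. No gene separated Severe PE from Mild PE at 18 h by the test: with limma 0 of 41 genes passed (7 unadjusted), and 0% of all genes passed. Of the 41 genes only Psmd8 and Psmd11 had all Severe PE rats above all Mild PE rats, a share no larger than the 4.9% of all genes. Psmd11 had 12.00, 12.00, 12.02 and 12.14 in Severe PE rats, against 11.89, 11.87, 11.78 and 11.70 in Mild PE rats. Psmd8 had 11.27, 11.32, 11.24 and 11.03 in Mild PE rats, below its lowest Severe PE rat.

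Between the times, Severe PE rats of 18 h were higher than those of 2 h in 40 of the 41 genes. The median log2 difference was 0.27 in the core and 0.43 in the regulatory particle, against 0.01 over all genes. By the adjusted p 15 genes passed, all higher (12.5% of all genes passed, 7.22% higher). The 15 became 4 (without 18-h Severe PE rat 3, 6.08% of all genes) to 19 (without 2-h Severe PE rat 1, 14.2%) with 1 rat left out. With the replicate block 0 passed, where 0% of all genes did. Of the 15, 3 reached 1.5-fold, where 8.63% of all genes passed and did so and 4.86% were higher. They were Psmd14 (0.77 ± 0.12 SE, adjusted p = 0.014), Psmd3 (0.67 ± 0.13 SE, adjusted p = 0.024) and Psmc5 (0.60 ± 0.12 SE, adjusted p = 0.033). In Mild PE rats 8 genes were higher at 18 h than at 2 h, none of them by 1.5-fold (15.5% of all genes passed, 8.47% higher, and 7.1% passed with 1.5-fold), and Psmb5, Psmc4 and Psmd5 had the smallest adjusted p. With 1 rat left out the 8 became 3 (without 2-h rat 2, 3 or 4 or 18-h rat 1, 7.62% to 12% of all genes) to 12 (without 18-h rat 3, 16.2%). With the replicate block 0 passed, where 0% of all genes did. Psmb5 had 12.92, 12.99, 12.89 and 12.95 in 18-h Mild PE rats, against 12.60, 12.57, 12.55 and 12.63 in 2-h Mild PE rats, without overlap (0.35 ± 0.03 SE, adjusted p = 0.0038). Vehicle rats of 18 h were higher too, in Psmb5 by 0.27 ± 0.09 (SE, limma adjusted p = 0.28) and in Psmc4 by 0.28 ± 0.12 (SE, adjusted p = 0.36). The effect of Mild PE at 18 h minus that at 2 h was 0.08 ± 0.11 SE for Psmb5 and 0.16 ± 0.14 SE for Psmc4. In Vehicle rats 0 of 41 genes passed between 18 h and 2 h (6 unadjusted), and 0% of all genes passed.

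Whether the effect of Severe PE differed between 18 h and 2 h was tested as a contrast in a limma model of all 22 arrays. The effect was larger at 18 h in 11 of the 41 genes (9.47% of all genes passed, 3.89% with a higher effect at 18 h), 9 of them of the regulatory particle and 2, Psmb2 and Psma5, of the core. The 11 became 3 with median centring, where 7.48% of all genes passed. With 1 rat left out they became 6 (without 2-h Vehicle rat 2, 8.43% of all genes) to 16 (without 2-h Severe PE rat 1, 16.4%). For 6 of the 11 the difference of effects also reached 1.5-fold, where 8.22% of all genes did and 3.36% in this direction. Psmd14 stood at 1.15 at 18 h and -0.15 at 2 h (difference of effects 1.30 ± 0.26 SE, adjusted p = 0.0069). Psmc5 stood at 0.62 at 18 h and -0.18 at 2 h (0.80 ± 0.16 SE, adjusted p = 0.0059), and Psmd4 at 0.40 at 18 h and -0.16 at 2 h (0.56 ± 0.09 SE, adjusted p = 0.0022), the smallest adjusted p of the 41 genes.

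Part of these differences lay in the Vehicle rats. Psmd6 had 9.56, 9.99 and 9.59 in 18-h Vehicle rats, against 10.19, 10.52 and 10.61 in 2-h Vehicle rats, so that its difference of effects (0.97 ± 0.26 SE, adjusted p = 0.034) went with Severe PE means of 10.23 at 18 h and 9.98 at 2 h. The Vehicle rats of 18 h had lower means than those of 2 h in 14 of 17 regulatory particle genes (median -0.13) and 8 of 13 core particle genes (median -0.05), where 6326 of 14217 genes had (median 0.06), and none of these passed. With median centring these medians were above 0 (0.06 and 0.17, against 0.19 over all genes), and 18 of the 30 genes were higher at 18 h. The effect of Mild PE differed between the times in 0 of 41 genes (10 unadjusted), where 1.21% of all genes passed. In the 2-way model of the 22 arrays, 19 of the 41 genes passed for time (30.6% of all genes), 6 for dose (15.7%) and 6 for their interaction (6.27%). Psmb2, Psmd14 and Psmd7 passed for both dose and interaction.

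**Figure D4:**
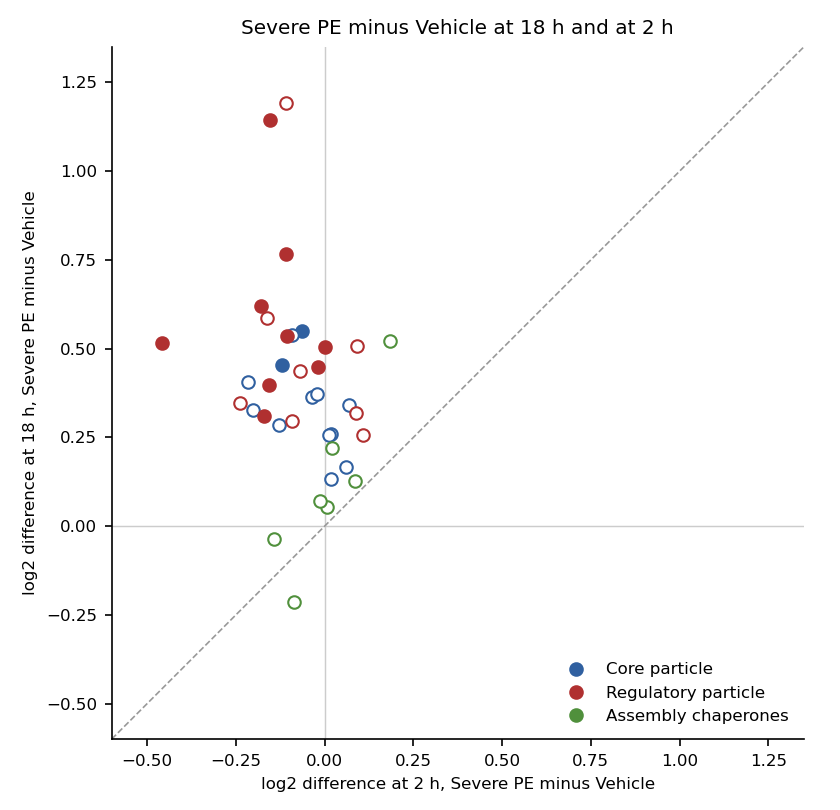
Each point is 1 gene. The vertical axis is its log2 difference between Severe PE and Vehicle rats at 18 h and the horizontal axis the same difference at 2 h, coloured by core particle, regulatory particle and assembly chaperones. Filled points are genes whose 2 differences were themselves different (limma, adjusted p below 0.05), and on the dashed line both times would be equal. The filled points all lie above the line, with Psmd14 at 1.15 on the vertical axis and -0.15 on the horizontal.

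Several genes had more than 1 probe set, 8 of the 41. Psmd14 had 3, which differed in brightness and gave like differences at 18 h of Severe PE. Its second probe set had 9.94, 10.05, 9.86 and 9.88 in Severe PE rats, against 8.84, 8.98 and 8.89 in Vehicle rats, a tighter pair of groups than on the brightest probe set (1.03, adjusted p = 0.0039), and it passed in Mild PE as well (0.80, adjusted p = 0.047). The third gave 1.26 (adjusted p = 0.099). For Psmc6 the others gave 1.03 (adjusted p = 0.12) and 0.66 (adjusted p = 0.41). All 3 had their lowest 18-h Vehicle value in rat 2.

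For Psmd7 the other probe set passed (0.61, adjusted p = 0.029), and for Psmd11 the second passed (0.44, adjusted p = 0.023) where the brightest did not. Probe sets of 3 genes gave opposite signs. Psmd9's dim probe set gave -0.31 (adjusted p = 0.51) in Severe PE rats, and Psme4's second gave -0.18 (adjusted p = 0.63) in Severe PE and -0.37 (adjusted p = 0.17) in Mild PE rats. The dimmest probe set of Psme4 had the sign of the brightest in Severe PE rats (0.47, adjusted p = 0.087). The other 2 probe sets of Psmb5 lay around the floor, and in Mild PE rats one gave 1.48 and the other -0.75, neither past an adjusted p of 0.26.

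Across the 22 rats, with group differences included, most pairs of the 30 core and regulatory particle genes were positively correlated. The median correlation of their 435 pairs was 0.54, and 90.8% were positive. After the mean of each group was subtracted the median correlation was 0.18, with 61.1% positive. Within the core it was then 0.31 (78 pairs) and within the regulatory particle 0.12 (136 pairs). The pairs share their arrays and their normalization, and the same correlation over all genes was not computed. On the low-5′ arrays some members stood out: Psmd1 had 9.71 in 2-h Severe PE rat 1 and 9.59 in 2-h Vehicle rat 3, Psme4 9.61 and 9.73, and Psma4 9.55 and 9.41, in each case the highest of their groups. On the same 2-h arrays Psmb5 (12.41 and 12.42) and Psmc4 (11.53 and 11.47) were instead the lowest of their groups. Array 1 of the 18-h Vehicle rats was the lowest of its group in Psma5 (10.37), Psma6 (11.62) and Psmd11 (11.27). It was the highest of its group in others, among them Psmb5 (12.89), Psmc4 (12.05) and Psmc6 (9.72). The part of 5′ signal in these values was not tested.

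Genes that work beside the proteasome were examined as lists written with earlier results of these data known. Of 11 assembly factors and partners outside the symbol rule, 1 passed at 18 h of Severe PE, where 13.5% of all genes did. Zfand2a, a stress-induced protein that binds the regulatory particle, had 8.98, 9.39, 9.15 and 9.37 in Severe PE rats, against 8.51, 8.06 and 8.29 in Vehicle rats, and rose 1.91-fold (0.94 ± 0.15 SE, adjusted p = 0.023). Pomp, the maturation factor of the core, did not pass (0.19 ± 0.12 SE, adjusted p = 0.39).

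Of 8 genes of substrate delivery and unfolding, 2 passed, both higher, where 6.18% of all genes passed and were higher. Rad23b, which carries ubiquitinated proteins to the regulatory particle, had 12.05, 12.31, 12.20 and 12.16 in Severe PE rats, against 11.34, 11.38 and 11.65 in Vehicle rats, and rose 1.65-fold (0.72 ± 0.10 SE, adjusted p = 0.017). Nploc4, a cofactor of the segregase Vcp, rose 1.63-fold (0.70 ± 0.12 SE, adjusted p = 0.025). Both had all Severe PE rats above all Vehicle rats. Of 8 genes of ubiquitin and its activation 0 passed, and of the 5 interferon-induced proteasome genes 0 passed, with Psme2 the closest (0.58 ± 0.16 SE, adjusted p = 0.09). Psmb9, an interferon-induced catalytic subunit, had 11.42, 11.54, 11.92 and 10.67 in Severe PE rats, against 11.69, 11.73 and 11.68 in Vehicle rats, so that the groups overlapped (-0.31 ± 0.29 SE, adjusted p = 0.57).

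Among 12 regulators 2 passed, a share near the 13.5% of all genes, and both were lower. Bach1, a repressor that binds antioxidant response elements, had 6.05, 5.67, 5.95 and 5.97 in Severe PE rats, against 6.64, 6.90 and 6.43 in Vehicle rats (-0.75 ± 0.14 SE, adjusted p = 0.032), and Nfya, a subunit of the factor that binds CCAAT boxes, differed by less (-0.34 ± 0.07 SE, adjusted p = 0.042). The mRNA of Nfe2l1 (-0.37 ± 0.25 SE, adjusted p = 0.43) and that of its relative Nfe2l2 (0.55 ± 0.16 SE, adjusted p = 0.097) did not pass. In 18-h Mild PE rats no gene of these lists passed.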

How the data were processed

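The authors hybridised RNA of each rat's right lung to an Affymetrix rat genome array. The values as deposited are linear probe set intensities, scaled by the authors to a common trimmed mean of about 500.2 per array; the paper describes GC-RMA log2 values, another summary of the same arrays. After 57 array controls were left out, 31042 probe sets remained. Intensities under 16 were set to 16, taken to log2 (floor 4) and quantile normalized with limma 3.58.1 in R 4.3.3. The array annotation gave 1 symbol for 20826 probe sets, several for 436 and none for 9780, and the brightest probe set represented each of 14217 genes.

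Each pair of groups was compared with limma (lmFit, eBayes, no trend) on those groups alone, with Benjamini-Hochberg adjustment over all probe sets. The methods' rule adds a 1.5-fold minimum, and both counts are given. Contrasts of effects between times and the 2-way model used all 22 arrays. Replicates were separate rats, and 3 or 4 per group limit the precision. The members and gene lists were chosen with earlier results of these data known. The genes named are the catalytic, deubiquitinating, receptor, cap, inhibitor and chaperone genes, the 5 highest and 3 lowest differences per particle at 18 h, genes called elsewhere (the 5 of smallest adjusted p), genes with discordant probe sets, and list genes called at 18 h. Other genes were named after their values were seen. Motifs were matched in RefSeq promoter sequences. The fits were tested on simulated data. Alternatives were median centring, no further normalization, a variance trend, dim probe sets left out, a floor of 64, 1 fit on all arrays, a replicate block, the methods' t-test, the mean of a gene's probe sets, the low-5′ arrays left out, and each array left out.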

Additional observations from a re-analysis of the deposited data

Results flagged for a closer look

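Of 164 groups of 4 rats, 4 per gene, 11 had 1 rat far from the other 3 for their range, where chance gives about 1 in 20. At 18 h of Severe PE, rat 1 was low in Psmc5 (11.28, others 11.61 to 11.65) and Psmd12 (10.16, others 10.36 to 10.40) and high in Psmc3ip (9.04, others 8.46 to 8.55), and rat 4 was low in Psmb3 (12.33, others 12.71 to 12.74) and high in Psmd11 (12.14, others 12.00 to 12.02). In Mild PE at 18 h, rat 1 was high in Psmb1 (12.94, others 12.79 to 12.81) and rat 2 in Psmf1 (11.25, others 11.16 to 11.17). At 2 h of Severe PE, rat 1, whose array had low 5′ signal, was high in Psmd1 (9.71, others 8.62 to 8.73). At 2 h of Mild PE, rat 1 was high in Psmd12 (9.98, others 9.74 to 9.77), rat 3 high in Psmd2 (12.32, others 12.26 to 12.27) and rat 4 low in Psmd8 (10.87, others 10.97 to 10.99).

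The effect of Severe PE differed between 18 h and 2 h, by limma's contrast with at least 1.5-fold, in Psmd14 (1.30), Psmd6 (0.97), Psmd12 (0.87), Psmc5 (0.80), Psmd13 (0.64) and Psmb2 (0.61), each the log2 effect at 18 h minus that at 2 h.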

How the results depend on the processing

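The direction at 18 h of Severe PE held while the count of genes passing moved, but a sign moves less readily than a count at a threshold. The alternatives also share most of their arrays. The variance trend, the 1 fit on all arrays and the methods' t-test leave the differences unchanged, so that they bear on the count alone. All 30 core and regulatory particle differences were above 0 under every alternative run, with a median of 0.314 to 0.416 in the core and 0.439 to 0.510 in the regulatory particle. The 14 genes past the adjusted p became 2 with median centring (9.33% of all genes passed) and 2 with the low-5′ arrays left out (7.36%). With the replicate block 0 of them passed, where 0% of all genes did. With 1 rat left out the count was 1 (without Severe PE rat 2, 5.3% of all genes) to 8 (without Severe PE rat 1, 8.82%). It was 2 without Vehicle rat 1 (7.37%), 5 without Vehicle rat 2 (6.41%) and 4 without Vehicle rat 3 (6.08%). It was also 2 without Severe PE rat 3 (5.89%) and 7 without Severe PE rat 4 (9.07%). Psmd8 passed in 6 of the 7 runs with 1 rat left out, Psma2 in 5, Psmd7 in 3, Psmd14, Psmd4 and Psmd9 in 2, Psmb2, Psmc3, Psmc5, Psmd13 and Psmd3 in 1, and Psmb1, Psmc4 and Psmd2 in 0.

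Counts at 1.5-fold moved as follows, and the cause was not tested. The share of all genes at 1.5-fold was not computed under the alternatives, nor under those of the 2-way model. By adjusted p alone, 13.5% of all genes passed at 18 h of Severe PE in the main run. This share was 25.7% with dim probe sets left out and 23.4% in 1 fit on all arrays. It was 9.33% with median centring, 7.73% by the methods' t-test, 7.36% without the low-5′ arrays and 0% with the replicate block. The moves cannot be read as particular to the proteasome genes. At 18 h of Severe PE against Vehicle, 2 genes became 14 with no fold minimum, 4 with dim probe sets left out, 4 in 1 fit on all 22 arrays, 1 with median centring, 0 with the replicate block, 0 by the methods' t-test, 0 without the low-5′ arrays, and 0 to 3 with 1 rat left out (0 without Vehicle rat 1, Severe PE rat 2 or Severe PE rat 3). In 18-h Mild PE, 0 became 1 in the fit on all arrays. For Severe PE at 18 h against 2 h, 3 became 15 with no fold minimum, 11 with median centring, 5 with no further normalization, 0 with the replicate block and 1 to 3 with 1 rat left out (1 without 2-h rat 2, 18-h rat 2 or 18-h rat 3). For Mild PE at 18 h against 2 h, 0 became 8 with no fold minimum, and at 2 h of Severe against Mild PE 0 became 1. For the effect of Severe PE at 18 h minus 2 h, 6 became 11 with no fold minimum, 2 with median centring and 3 to 10 with 1 rat left out (10 without 2-h Severe PE rat 1, 3 without 2-h Vehicle rat 2, 18-h Severe PE rat 2 or 18-h Severe PE rat 3). For that of Mild PE, 0 became 1 with the mean of a gene's probe sets. In the 2-way model, with alternatives chosen after seeing the data, 6 for dose became 2 with median centring, 3 with the replicate block, 2 without the low-5′ arrays and 1 to 9 with 1 rat left out (1 without 2-h Vehicle rat 3). The 6 for interaction became 1 with median centring, 3 with the block, 3 without the low-5′ arrays and 2 to 11 with 1 rat left out (2 without 2-h Vehicle rat 1, 11 without 2-h Severe PE rat 1).

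The replicate numbers did not pair the rats: the deviations of same-numbered rats from their group means correlated between -0.273 and 0.123 over 31 pairs of such rats in the groups compared. In a comparison with Vehicle the block leaves rat 4 of the PE group with no partner, so that it adds nothing to the difference. The sign turned for small differences. At 18 h of Severe PE it turned for Psmg2 (0.114 with the block and without Severe PE rat 4) and Psmd10 (-0.058 in both). In 18-h Mild PE it turned for Psma6 (-0.095 without the low-5′ arrays, -0.060 without Vehicle rat 1), Psmb4 (0.045 without Mild PE rat 3) and Psmd1 (-0.049 with the block and without Mild PE rat 4, -0.134 without the low-5′ arrays).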
